A study of Mus musculus with 9 samples.

Results

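The expression of 9 genes that mark B cells and antibody-secreting plasma cells was followed in mouse lung on 9 one-color microarrays. The genes were taken from a fixed list of names, 6 for B cells (Cd79a, Cd79b, Ms4a1, Pax5, Blk and Cd22) and 3 for plasma cells (Jchain, Mzb1 and Prdm1), out of 19694 genes that had a name and a probe above the background filter. All samples were total RNA of lung from male C57BL/6 mice, described as 10 weeks old. The study states this age for the mice as housed, and age when tissue was taken may be higher and may differ between arrays. The control group held 4 arrays and the irradiated group held 5 arrays of left lung tissue, and the dose, the part of the lung and the time at which tissue was taken are missing from the labels. Mice were anesthetized with zoletil and rompun while they were irradiated, and the study pooled the RNA of triplicate experiments before labeling. No label says that the arrays of a group came from separate animals, so each p-value measures the spread between arrays only. The irradiated arrays may thus differ in dose, region or time, and their spread can hold such differences.

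There were 44397 spots on an array, 43020 of them for 39429 gene probes. Between 72.8% and 89.1% of the spots of an array were well above background, and no spot was saturated. All 8 genes of a lung epithelium list were well above background on all 9 arrays, as were all 9 B-cell and plasma-cell genes. A pair of arrays stood apart in muscle genes. On irradiated array 1 the mean of 10 cardiac muscle genes lay at -5.43 log2 units relative to the control mean, against -0.49 to 0.41 on the other irradiated arrays and -0.55 to 0.56 on the control arrays. On control array 3 the mean of 10 skeletal muscle genes was 3.63, against -1.91 to -0.98 on the other 8 arrays.

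B cells recognize antigen through a membrane antibody that signals through the CD79 proteins, and their identity is held by the transcription factor Pax5. When a B cell becomes a plasma cell, Prdm1 represses the B-cell program, the endoplasmic reticulum expands, and antibody is secreted, in part as polymers joined by the J chain. In the lung, B cells circulate with the blood and can gather in lymphoid aggregates beside airways, and plasma cells of the airway wall supply the IgA that the epithelium carries to its surface. In bulk tissue RNA, fewer cells of a type and less RNA per cell cannot be told apart.

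The promoters of a B-cell gene and a plasma-cell gene are shown because these genes carry the contrast described in the next paragraphs, irradiated values that lie close together for Cd79a and range 107-fold for Jchain. The width for Jchain rested on irradiated array 1, at 10.11, beside 14.02 to 16.86 on irradiated arrays 2 to 5. The sequences are the 250 bases before the gene start in RefSeq, mouse build GRCm38.p6, written 5′ to 3′ along the gene. Cd79a lies on the forward strand at chr7:24897247-24897496 and Jchain on the reverse strand at chr5:88527898-88528147. Capitals mark CAGNTG, the E-box that the E proteins of lymphocyte development bind, and GAGGAA, a sequence that ETS factors such as PU.1 can bind, both searched on both strands.
Cd79a: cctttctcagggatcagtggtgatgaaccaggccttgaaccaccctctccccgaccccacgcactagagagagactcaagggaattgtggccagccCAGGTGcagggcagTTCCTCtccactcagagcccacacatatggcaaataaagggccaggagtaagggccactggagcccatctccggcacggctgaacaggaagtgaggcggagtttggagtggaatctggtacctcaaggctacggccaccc
Jchain: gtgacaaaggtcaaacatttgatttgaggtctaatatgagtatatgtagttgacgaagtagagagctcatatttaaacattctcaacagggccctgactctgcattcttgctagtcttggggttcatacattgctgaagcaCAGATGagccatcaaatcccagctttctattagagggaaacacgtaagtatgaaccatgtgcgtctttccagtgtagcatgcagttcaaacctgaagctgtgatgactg
The table held 5 of the 9 promoters, those of Cd22, Cd79a, Jchain, Pax5 and Prdm1. CAGNTG was found in 4 of these 5, all but Pax5, and in 44.8% of 32851 windows of the same length. GAGGAA was found in 2 of the 5, Cd79a and Prdm1, and in 23.3% of all windows. A match describes letters in the window and is not a binding site.

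The first question was whether these genes differed between irradiated and control lung. None of the 9 genes passed the threshold of limma at an adjusted p under 0.05, where 0.333% of all 39303 probes passed (0.191% higher and 0.142% lower). Of the 6 B-cell genes, 5 had a lower mean in the irradiated arrays, with a median difference over the 6 of -0.27 log2 units, beside 0.01 over all genes, of which 9472 of 19694 had a lower mean. The 3 plasma-cell genes had a median difference of 0.03, which was 0.62 without irradiated array 1 and -0.06 without control array 3. The groups overlapped for each of the 9 genes, while 4.16% of all probes had groups that did not overlap. The values are log2 intensities after quantile normalization, and a difference is always taken between arrays for the same probe.

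**Figure D1:**
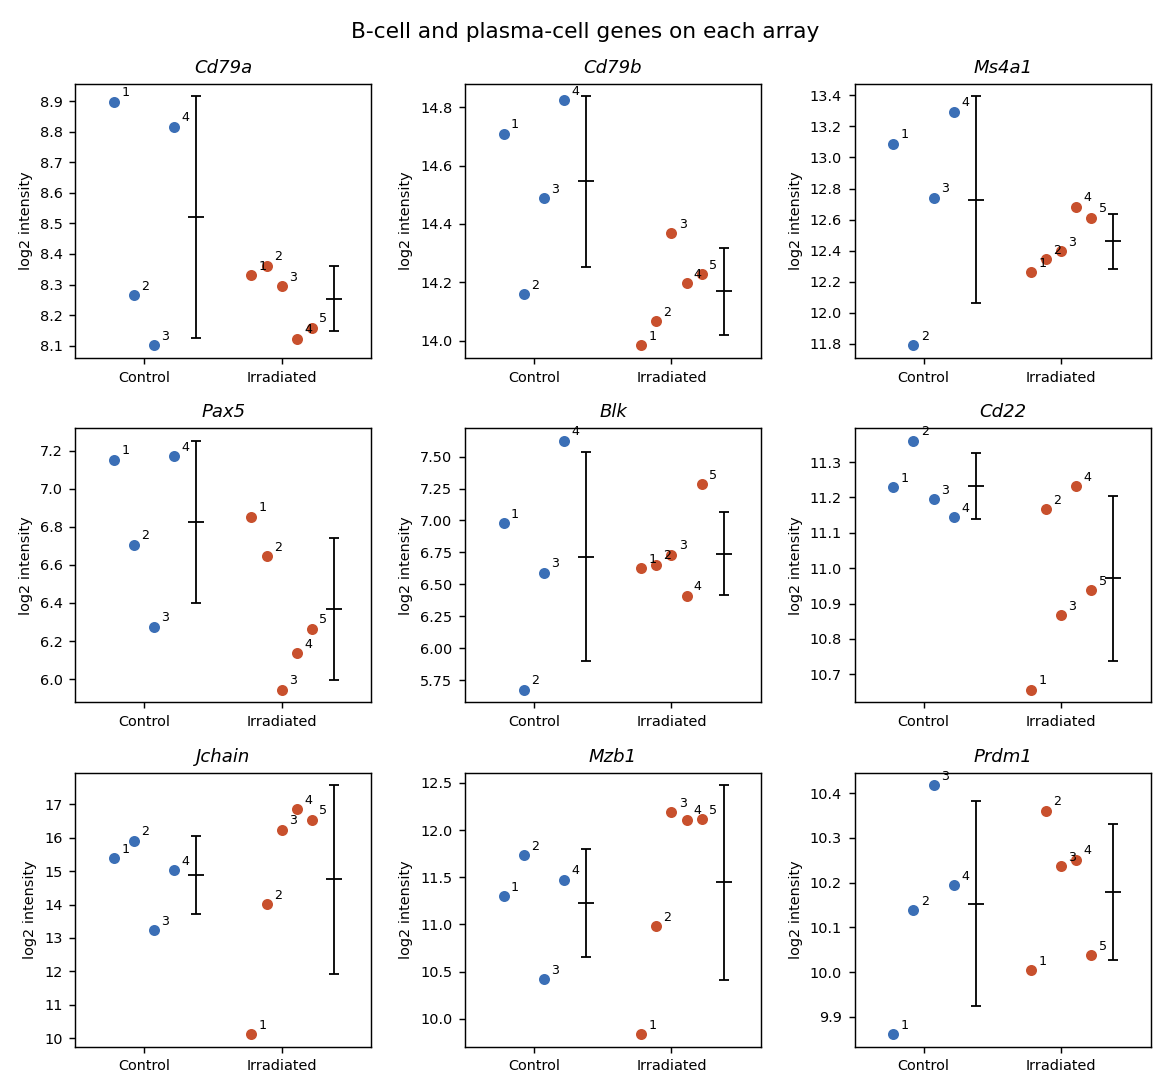
Log2 intensity of the 9 genes on each array (points, numbered by array), for 4 control arrays (blue) and 5 irradiated arrays (red), with the mean and SD of each group as bars; each panel has its own axis. The groups overlap in every panel, and the irradiated arrays spread from 10.11 to 16.86 for Jchain but from 8.12 to 8.36 for Cd79a. The 10.11 is irradiated array 1, and irradiated arrays 2 to 5 lie from 14.02 to 16.86 for Jchain.

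Cd79a and Cd79b encode the signaling chains of the B-cell receptor. Cd79a had log2 intensities of 8.90, 8.27, 8.10 and 8.82 on control arrays 1 to 4, and of 8.33, 8.36, 8.29, 8.12 and 8.16 on irradiated arrays 1 to 5. All 5 irradiated arrays lay below the control mean and close to control arrays 2 and 3, while control arrays 1 and 4 were higher. The mean difference of -0.27 (SE 0.19, 95% interval -0.68 to 0.15) did not pass the threshold (limma adjusted p = 0.728), nor did the exact two-sided permutation test (p = 0.286), for which the smallest possible p with 4 against 5 arrays is 0.0159. Without 1 array at a time the difference ranged from -0.41 (without control array 3) to -0.14 (without control array 1). Cd79b was at 14.71, 14.16, 14.49 and 14.82 on the control arrays and at 13.98, 14.07, 14.37, 14.20 and 14.23 on the irradiated arrays. Irradiated arrays 1 and 2 were below all controls, and the others lay between control arrays 2 and 3. The group means were 14.55 ± 0.29 (SD, n = 4) and 14.17 ± 0.15 (SD, n = 5). No other gene of the list had an unadjusted limma p under 0.05, whereas Cd79b had 0.0211 and 9.94% of all probes passed that level, 4.41% with a lower and 5.52% with a higher mean. Its difference of -0.38 (SE 0.14, 95% interval -0.68 to -0.07, a 0.770-fold level) had a limma adjusted p of 0.358 and an exact permutation p of 0.0635.

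Ms4a1 encodes CD20, a membrane protein of mature B cells. It was at 13.09, 11.79, 12.74 and 13.30 on control arrays 1 to 4 and at 12.26, 12.34, 12.40, 12.68 and 12.61 on irradiated arrays 1 to 5. The irradiated arrays lay within 0.42 log2 units of each other, whereas the control arrays spanned 1.51, with control array 2 the lowest. The difference was -0.27 (SE 0.26, 95% interval -0.86 to 0.32, limma adjusted p = 0.834), and without 1 array at a time it ranged from -0.58 without control array 2 (limma adjusted p = 0.222) to -0.08 without control array 4 (limma adjusted p = 0.967). Cd22 encodes an inhibitory coreceptor that binds sialic acid. It was at 11.23, 11.36, 11.20 and 11.14 on the control arrays and at 10.66, 11.17, 10.87, 11.23 and 10.94 on the irradiated arrays. All irradiated arrays were below the control mean and irradiated arrays 2 and 4 lay among the controls, with a difference of -0.26 (SE 0.13, 95% interval -0.54 to 0.02, limma adjusted p = 0.548).

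Pax5 and Blk act inside the B cell, in the nucleus and at the inner face of the membrane. Pax5, the factor that commits a cell to the B lineage, was at 7.15, 6.71, 6.27 and 7.17 on the control arrays and at 6.85, 6.65, 5.94, 6.14 and 6.27 on the irradiated arrays. Irradiated arrays 3, 4 and 5 were below the lowest control, and arrays 1 and 2 lay among the controls. The difference was -0.46 (SE 0.26, 95% interval -1.04 to 0.13, limma adjusted p = 0.642). A second Pax5 probe was well above background on 3 arrays only and differed by -0.13 (SE 0.56). Blk, a Src-family kinase that acts behind the B-cell receptor, was at 6.98, 5.67, 6.59 and 7.62 on the control arrays and at 6.63, 6.65, 6.73, 6.41 and 7.28 on the irradiated arrays. All irradiated values lay inside the range of the controls, and the difference of 0.02 (SE 0.36, 95% interval -0.77 to 0.82) had the opposite sign under 8 of 21 alternatives.

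The plasma-cell genes Jchain and Mzb1 showed another pattern. Jchain, which encodes the J chain of polymeric IgA and IgM, was at 15.39, 15.91, 13.23 and 15.02 on control arrays 1 to 4 and at 10.11, 14.02, 16.25, 16.86 and 16.54 on irradiated arrays 1 to 5. Irradiated arrays 3, 4 and 5 were above all controls, irradiated array 2 lay among them, and irradiated array 1 was below all of them. The irradiated arrays ranged 107-fold, against 6.42-fold for the control arrays. This width rested on irradiated array 1, since irradiated arrays 2 to 5 lay from 14.02 to 16.86 and the controls from 13.23 to 15.91. The group means were 14.89 ± 1.17 (SD, n = 4) and 14.75 ± 2.82 (SD, n = 5). Relative to the control mean, Jchain was 0.0365-fold on irradiated array 1 and 3.92-fold on irradiated array 4. The SD among irradiated arrays was larger than that of 99.9% of all probes, and the SD among control arrays was larger than that of 97.1%. The group difference of -0.13 had an SE of 1.28 and a 95% interval of -2.98 to 2.71 (limma adjusted p = 0.998), an interval that holds changes of several fold in either direction. Without irradiated array 1 the difference was 1.03 (limma adjusted p = 0.730), and without control array 3 it was -0.69.

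Mzb1, an endoplasmic reticulum protein that assists antibody assembly, was at 11.30, 11.73, 10.42 and 11.47 on the control arrays and at 9.83, 10.98, 12.19, 12.11 and 12.12 on the irradiated arrays. Irradiated arrays 3, 4 and 5 were again above all controls and irradiated array 1 below them, with control array 3 the lowest control. The irradiated range was 5.10-fold, against 2.49-fold for the control arrays, and irradiated arrays 2 to 5 lay from 10.98 to 12.19. The difference of 0.22 (SE 0.49, 95% interval -0.88 to 1.31) had a limma adjusted p of 0.958. Without irradiated array 1 it was 0.62 (limma adjusted p = 0.611), and without control array 3 it was -0.06. Over the 9 arrays Jchain and Mzb1 varied together (Pearson r = 0.97, exact permutation p adjusted over 36 gene pairs = 0.00119). Spearman's rho was 0.92 (adjusted exact permutation p = 0.0472), and r was 0.94 without control array 3 and irradiated array 1, the arrays farthest from the median of Jchain. This was the only 1 of the 36 pairs of the 9 genes that passed for Pearson's r. The pairs Cd79a with Pax5 (r = 0.83, adjusted exact permutation p = 0.0635) and Cd79b with Ms4a1 (r = 0.83, adjusted exact permutation p = 0.0639) did not pass, and without control arrays 1 and 4 their r was 0.54 and 0.49.

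Prdm1 encodes Blimp-1, the factor that drives plasma-cell differentiation and is also present in T cells, macrophages and epithelium. It was at 9.86, 10.14, 10.42 and 10.19 on the control arrays and at 10.00, 10.36, 10.24, 10.25 and 10.04 on the irradiated arrays. Its irradiated range of 1.28-fold was narrow beside that of Jchain and Mzb1, and its correlation with Jchain was 0.02 over all arrays and -0.51 without irradiated array 1. The difference was 0.03 (SE 0.13, 95% interval -0.27 to 0.32, limma adjusted p = 0.990).

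**Figure D2:**
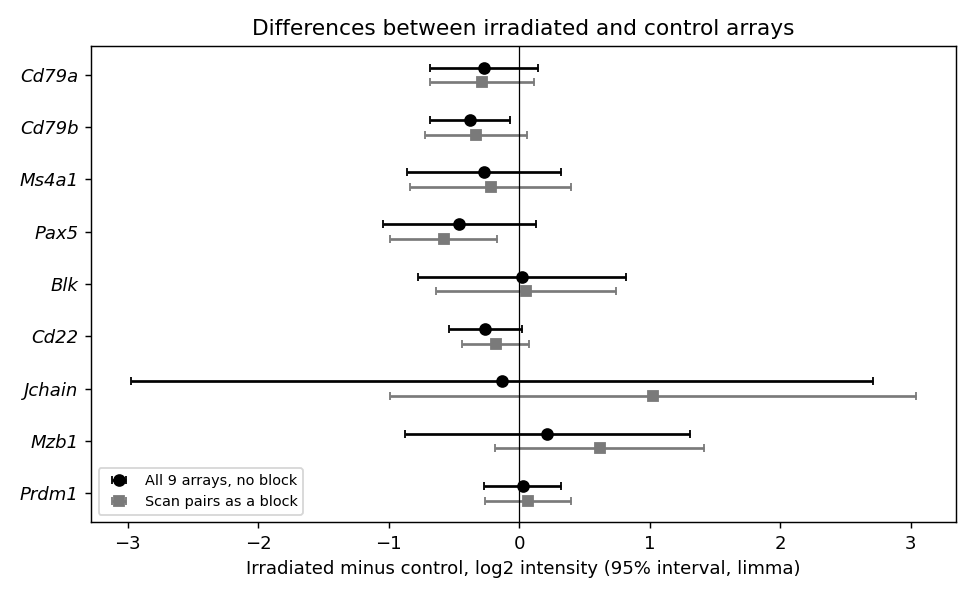
Difference of means, irradiated minus control, in log2 intensity for the 9 genes, with 95% intervals from limma: all 9 arrays without a block (black circles) and with pairs of arrays taken to be neighbors on the scan as a block (gray squares). The interval excludes 0 for Cd79b without the block and for Pax5 with it, and neither passed after adjustment over all probes; the widest interval is that of Jchain, from -2.98 to 2.71.

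From the spot coordinates in the scanner files, 8 of the arrays were taken to lie next to each other on the scan in 4 pairs. Each pair held 1 control and 1 irradiated array, and irradiated array 1 was left without a partner. No label names these pairs. Within the 4 pairs, in the order of the control number, Jchain differed by -1.38, 0.34, 3.63 and 1.51, and Mzb1 by -0.32, 0.46, 1.69 and 0.64. Both were therefore higher in the irradiated array of 3 of 4 pairs, and the pair with control array 3 gave the largest difference. Pax5 was lower in all 4 pairs, by -0.51, -0.76, -0.14 and -0.91. With the pairs as a block, a fit in which irradiated array 1 adds nothing to the difference, Pax5 differed by -0.58 (95% interval -0.99 to -0.17, limma adjusted p = 0.133), Jchain by 1.03 (95% interval -0.99 to 3.04) and Mzb1 by 0.62 (95% interval -0.18 to 1.42). Cd79b was lower in 3 of 4 pairs (-0.64, 0.21, -0.29 and -0.60), as was Ms4a1 (-0.74, 0.61, -0.06 and -0.68). Blk and Cd22 were also lower in 3 of 4 pairs, though the mean difference of Blk over the pairs was 0.05. Cd79a was lower in 2 of 4 pairs (-0.54, 0.03, 0.02 and -0.66), as was Prdm1. None of the 9 genes passed with the block, where 2.81% of probes did. With the pairs as a random block, which uses all 9 arrays, the lowest adjusted p of the 9 genes was 0.0987 (limma), that of Pax5, and 7.38% of probes passed.

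**Figure D3:**
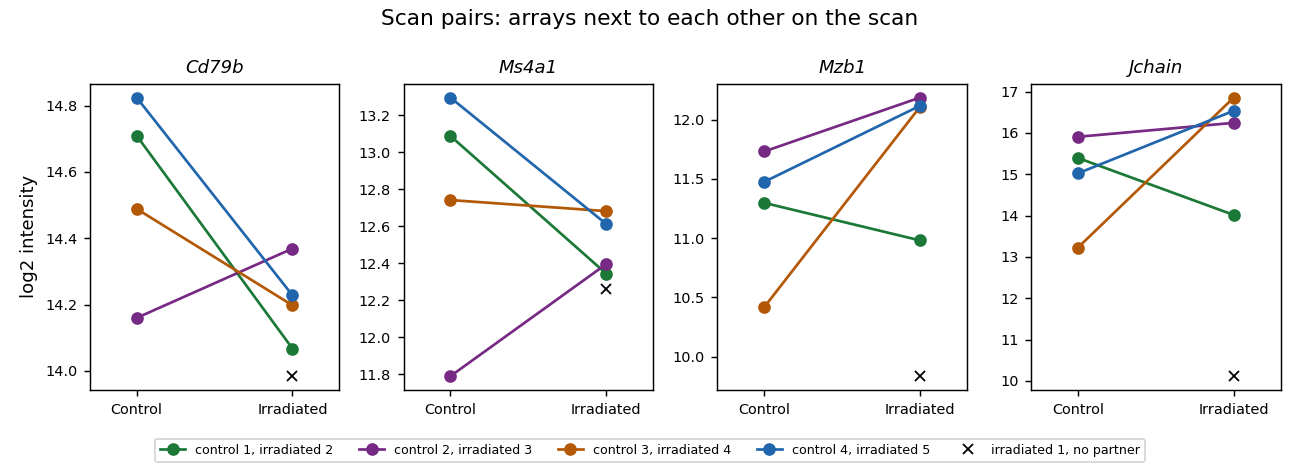
Log2 intensity of Cd79b, Ms4a1, Mzb1 and Jchain in the 4 pairs of arrays taken to lie next to each other on the scan (lines, 1 color for each pair) and on irradiated array 1, which was left without a partner (cross). The control 2 pair runs against the other pairs for Cd79b and Ms4a1, and the control 1 pair is the one in which Mzb1 and Jchain were lower after irradiation.

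The wider B-lineage program was described with 6 lists, of which 91 of 108 genes were measured. None of the 91 passed the threshold in limma without a block, where 0.416% of 19694 genes passed, and at an unadjusted limma p under 0.05 there were 10 higher and 11 lower, where 7.37% and 4.98% of genes were. With the scan pairs as a block 6 passed, 4 higher and 2 lower, beside 3.84% of genes (2.28% higher and 1.56% lower). With the random block 16 passed, 9 higher and 7 lower, beside 9.45% of genes (5.65% higher and 3.8% lower). Genes whose irradiated arrays all lay below all controls made up 1.76% of all genes, and those whose irradiated arrays all lay above made up 3.4%, together 5.15%. Genes named in the next paragraphs for such a separation, for a pass under a block or for a pattern across arrays were chosen after their values were seen.

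Of 20 B-cell surface and coreceptor genes, all well above background on all arrays, 17 had a lower and 3 a higher mean in the irradiated arrays, with a median difference of -0.28. Without irradiated array 1, 14 were lower and 6 higher, with a median of -0.22. Irradiated arrays lay below all controls for 4 of the 20, Cr2, Tnfrsf13b and Vpreb3 among them, and above them for 0. Cr2, a complement receptor of mature B cells, ranged from 11.29 to 11.72 in the control group and from 10.79 to 11.20 in the irradiated group. Its difference was -0.48 (SE 0.13). Cr2 passed with the random block at -0.45 (limma adjusted p = 0.0401) but not with the scan pair block (limma adjusted p = 0.178). Tnfrsf13b, which encodes the TACI receptor for B-cell survival factors, differed by -0.51 (SE 0.15). It passed with the random block (limma adjusted p = 0.0174) but not with the scan pair block (limma adjusted p = 0.0772). Vpreb3, a chaperone-like protein of B-lineage cells and 1 of the 2 genes of this list with the strongest signal, was at 14.18, 14.78, 14.67 and 14.29 on the control arrays, all above the irradiated arrays, which ranged from 13.39 to 14.15. Vpreb3 differed by -0.66 (SE 0.17, limma adjusted p = 0.182) and passed with the scan pair block at -0.74 (adjusted p = 0.0377). Cd24a, the other gene with the strongest signal, differed by -0.04 (SE 0.17), and by 0.04 without irradiated array 1. The genes with a higher mean were Cd72 (0.34, and 0.56 without irradiated array 1), Cd180 (0.16) and Fcgr2b. Fcgr2b, the inhibitory Fc receptor that macrophages and endothelium also carry, differed by 0.79 (SE 0.29) and passed with the scan pair block at 0.97 (limma adjusted p = 0.0259).

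Genes of B-cell receptor signaling were split in direction, with 9 of 17 higher and 8 lower and a median difference of 0.03, which became 11 higher, 6 lower and 0.12 without irradiated array 1. Bank1, a B-cell scaffold protein, was at 10.99, 10.66, 10.78 and 11.00 on the control arrays and at 10.07, 10.24, 10.52, 10.41 and 10.20 on the irradiated arrays, all below the controls. Its difference of -0.57 (SE 0.12) had a limma adjusted p of 0.102, of 0.0152 with the random block and of 0.110 with the scan pair block. Cd81, a tetraspanin that most lung cells carry, ranged from 15.89 to 16.29 in the control group and from 16.35 to 16.48 in the irradiated group. Its difference of 0.28 (SE 0.09) passed with the random block (limma adjusted p = 0.0433) but not with the scan pair block (limma adjusted p = 0.161). Malt1, a protease of the signaling path to NF-kappaB, differed by 0.55 (SE 0.23). It passed with the random block at 0.66 (limma adjusted p = 0.0359) but not with the scan pair block (limma adjusted p = 0.0556). Plcg2, the phospholipase that acts behind the receptor, differed by -0.11 (SE 0.11), and by -0.03 without irradiated array 1. Among 17 B-lineage transcription factors, 14 of them well above background on all arrays, 9 were lower and 8 higher, with a median difference of -0.12. Foxo1 and Bcl11a, both needed early in the lineage, were below all controls on all irradiated arrays. Bcl11a ranged from 9.89 to 10.19 in the control group and from 9.22 to 9.76 in the irradiated group. It passed with the random block (limma adjusted p = 0.0217) but not with the scan pair block (limma adjusted p = 0.118). Foxo1 differed by -0.31 (SE 0.10) and passed with the scan pair block (limma adjusted p = 0.0398), whereas Irf8 (0.11, SE 0.20) and Bcl6 (0.02, SE 0.15), the genes of this list with the strongest signal, did not. Without irradiated array 1 Irf8 differed by 0.27 and Bcl6 by 0.07.

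Most genes of the plasma-cell and secretory list had higher means after irradiation. Of its 20 genes, 18 had a higher and 2 a lower mean in the irradiated arrays, with a median difference of 0.28. Over all genes 10222 of 19694 had a higher mean, and in the cell division list 11 of 12 did. Without irradiated array 1, 19 of the 20 were higher and 1 lower, with a median of 0.35. None of the 20 passed in limma without a block or with the scan pair block, whereas 3 passed with the random block. These were Sdc1 (limma adjusted p = 0.0196, and 0.109 with the scan pair block), Pdia4 (0.0174 and 0.0704) and Edem1 (0.0495 and 0.104). Sdc1, the syndecan CD138 of plasma cells and epithelium, was at 12.73, 12.84, 12.60 and 12.49 on the control arrays and at 12.99, 12.86, 13.27, 13.30 and 13.41 on the irradiated arrays. It was above all controls on all irradiated arrays, as was Pdia4, a disulfide isomerase of the endoplasmic reticulum, with differences of 0.50 (SE 0.13) and 0.60 (SE 0.19). Pigr, the epithelial receptor that carries J-chain antibody across the airway wall, differed by -0.21 (SE 0.16), and the chaperone Hsp90b1 by 0.24 (SE 0.13). The array order of Jchain, taken after its values were seen as irradiated arrays 3, 4 and 5 above all controls with irradiated array 1 and control array 3 the lowest of their groups, was found in 6 of the 20 genes (Xbp1, Irf4, Tnfrsf17, Derl3, Creld2 and Slamf7) and in 1.51% of all 19694 genes. It was also found in 4 of 16 survival and homing factors (Ccl19, Ccr10, Il6 and Il21, the last not well above background on all arrays), in 2 of 9 lymphoid stroma genes (Ccl19 and Clu), and in Fcgr2b and the macrophage gene Adgre1. Derl3, which removes misfolded protein from the endoplasmic reticulum, was at 10.39, 10.96, 9.13 and 10.27 on the control arrays and at 8.95, 10.02, 11.15, 11.78 and 11.44 on the irradiated arrays. Tnfrsf17, which encodes the survival receptor BCMA, was at 7.65, 8.23, 5.82 and 7.33 on the control arrays and at 5.57, 6.92, 8.66, 8.29 and 8.33 on the irradiated arrays. Xbp1, the factor of the secretory program that epithelium also expresses, had this order within a narrower range, from 15.41 to 15.95 over the 9 arrays. The other 14 genes of the list did not have it. Fkbp11, a folding enzyme of the secretory pathway, was at 7.60, 7.83, 9.30 and 7.40 on the control arrays and at 8.52, 7.87, 8.86, 9.38 and 7.89 on the irradiated arrays, with control array 3 the highest control.

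Of 17 antibody chain genes, only Vpreb1, a surrogate light chain of precursor B cells, could be named on the arrays through the gene table, and the other 16 were not analysed here. Vpreb1 was at 7.19, 7.42, 6.67 and 7.18 on the control arrays and at 8.74, 8.19, 8.14, 7.53 and 7.86 on the irradiated arrays, a difference of 0.98 (SE 0.25, limma adjusted p = 0.172) with all irradiated arrays above all controls, and it passed with the scan pair block (limma adjusted p = 0.0350). Of 16 survival and homing factors measured, 13 were well above background on all arrays, with Cd40lg above it on 0, Ccl28 on 7 and Il21 on 8. Of the 16, 12 were higher and 4 lower, with a median difference of 0.22, and of 0.43 without irradiated array 1. Il6, a cytokine that helps plasma cells survive, was at 7.24, 6.66, 6.50 and 7.62 on the control arrays and at 7.01, 9.48, 10.44, 10.43 and 10.30 on the irradiated arrays. Irradiated array 1 lay among the controls and the other 4 irradiated arrays were above all of them. The difference was 2.53 (SE 0.66, limma adjusted p = 0.178) on all 9 arrays and 3.16 both with the scan pair block (limma adjusted p = 0.0273) and without irradiated array 1 (limma adjusted p = 0.00714). With the random block, which includes that array, it was 2.91 (limma adjusted p = 0.00732). Tnfsf13b, which encodes the B-cell survival factor BAFF, differed by 0.46 (SE 0.13, limma adjusted p = 0.207) and passed with the scan pair block at 0.55 (adjusted p = 0.0426). Ccl21a and Cxcl12, chemokines of lymphocyte homing and the genes of this list with the strongest signal, differed by -0.53 (SE 0.22) and -0.12 (SE 0.25), the latter by -0.0090 without irradiated array 1.

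Lists of other cell types were set beside these results. The mean of the 3 plasma-cell genes, relative to the control mean, was -2.11 on irradiated array 1, the array on which the cardiac muscle list was at -5.43, and -0.74 on control array 3, the array with the high skeletal muscle list. On irradiated array 1 Jchain was at -4.77, Mzb1 at -1.40 and Prdm1 at -0.15, so the mean rested mostly on Jchain. On control array 3 they were at -1.66, -0.81 and 0.27. On irradiated array 1 the T-cell list was at -0.45, the plasmacytoid dendritic cell list at -0.36, the lung epithelium list at 0.20 and the macrophage list at 0.35. The list of 20 B-cell surface genes was at -0.51 on that array, against -0.20 to -0.02 on the other irradiated arrays. The mean of the 6 B-cell genes lay between -0.33 and -0.18 on all 5 irradiated arrays, irradiated array 1 included, and between -0.44 and 0.38 on the controls. T-cell genes, which share lymphoid aggregates with B cells, ranged from -0.45 to 0.51 on the irradiated arrays and from -0.19 to 0.16 on the controls. Neutrophil genes ranged from -1.17 to -0.14 on the irradiated arrays and from -0.52 to 0.70 on the controls, and cell division genes from 0.01 to 0.99 and from -0.34 to 0.27. The 2 groups thus overlapped for each of these lists, and the list of 20 plasma-cell and secretory genes was at -0.06 on irradiated array 1. Natural killer cell genes ranged from -0.53 to 0.29 and from -0.14 to 0.15, lymphoid stroma genes from -0.23 to 0.75 and from -0.32 to 0.44, and endothelium genes from -0.27 to 0.11 and from -0.10 to 0.14. The part of other cell types in the B-cell and plasma-cell values was not tested.

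**Figure D4:**
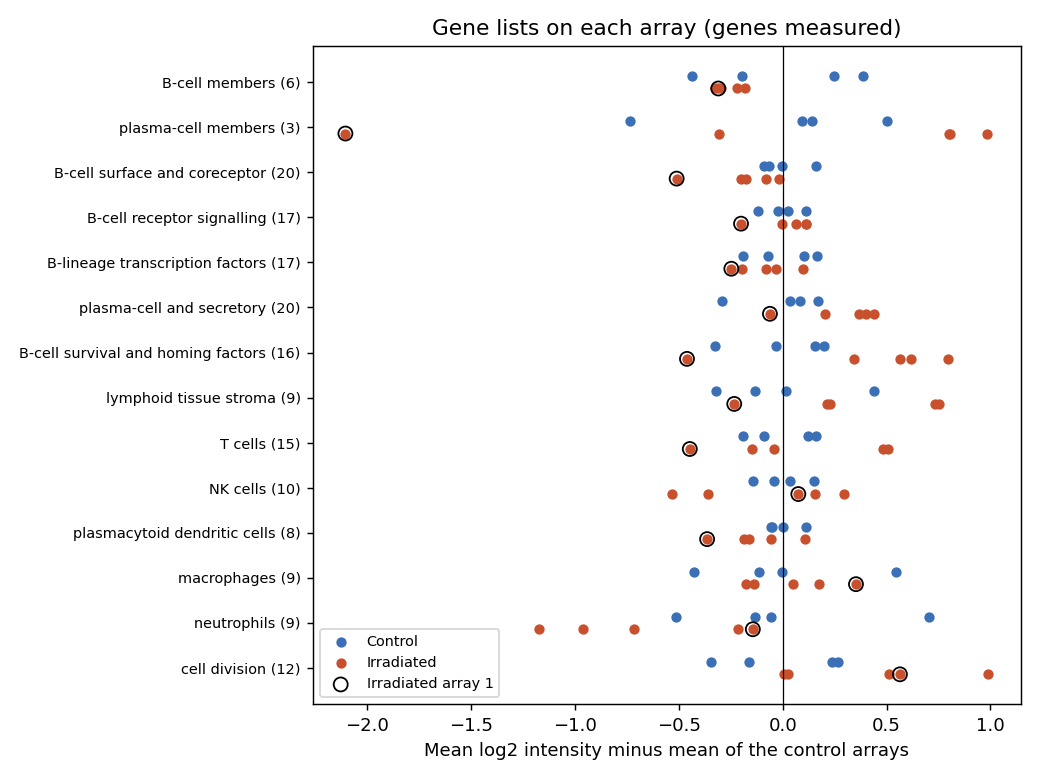
Mean log2 intensity of each gene list on each array minus the mean of the 4 control arrays, for control arrays (blue) and irradiated arrays (red, irradiated array 1 ringed); numbers in parentheses are genes measured. The 5 irradiated arrays lie together from -0.33 to -0.18 for the B-cell genes and spread from -2.11 to 0.98 for the 3 plasma-cell genes. The -2.11 is irradiated array 1, where Jchain is at -4.77, Mzb1 at -1.40 and Prdm1 at -0.15. The next lowest irradiated array is at -0.30.

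The genes most like the B-cell genes over the 9 arrays were Cplx1 (r = 0.95), Fcer2a (r = 0.95), Aldh1l1 (r = 0.93), Ing3 (r = 0.91) and Mef2c (r = 0.89), where r is Pearson's correlation with the mean of the standardized values of the 6 genes, among 15232 genes well above background on all arrays. Fcer2a encodes the low-affinity IgE receptor of B cells and belongs to the surface list. It was at 10.31, 9.61, 9.75 and 10.40 on the control arrays and ranged from 9.52 to 9.92 in the irradiated group. Control arrays 1 and 4 stood above the rest, as they did for Cd79a, which is part of the profile used to choose Fcer2a. The genes most like the 3 plasma-cell genes were Nfasc (r = 0.98), Igsf1 (r = 0.96), Wdr95 (r = 0.95), Fhl2 (r = 0.94) and Xlr4a (r = 0.93). Irradiated array 1 was the lowest of all 9 arrays for each of these 5, with 9.62 for Fhl2, against 11.30 to 12.19 on the other arrays. The genes were chosen for following a profile that was itself lowest on irradiated array 1. This order therefore follows from the choice and is no separate result. These correlations are a description over 9 arrays in 2 groups. The labels do not say whether any of the arrays share an RNA pool.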

How the data were processed

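Pooled lung RNA was hybridized to one-color Agilent arrays, 4 labeled control and 5 labeled irradiated. Per the methods of the study, intensities were extracted with the Feature Extraction software, and probes over 1.4 times the local background were quantile normalized. The authors deposited scanner intensity values without normalization between arrays, used here as the background-corrected processed signal, and a table of normalized intensity values, used as an alternative. Spots were matched to that table by their position on the scan (rank correlation 1.00 on each array).

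Control and outlier spots were left out, and a probe was kept when its signal exceeded the local background 1.4 times on 4 or more of the 9 arrays (39303 of 39429). Values were put on the log2 scale, quantile normalized and averaged over spots of a probe, and 88 probes lacked a value on an array. RefSeq names (mouse assembly GRCm38.p6) were found for 26049 probes and 19747 genes, of which 19694 had a probe kept, and a gene is its brightest probe. RefSeq promoters are of the same build.

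Groups were compared with limma 3.58.1 in R 4.3.3 (lmFit, eBayes with an intensity trend, no covariates, Benjamini-Hochberg over all probes kept, adjusted p under 0.05) and, for single genes, with exact two-sided permutation tests (scipy 1.17.1). Array numbers are those of the titles. Genes named by rule were the 9 genes, the 2 of each B-lineage list with the strongest signal, up to 3 of each list past the threshold, and the 5 most like each group of members; others were named after their values were seen. The members and lists were chosen with earlier results of these data known. A gene of the surface list is counted but not reported here by itself. The number of arrays limits the precision. Alternatives were another background correction, scaling, filter, threshold, variance model, probe rule or source of values, array weights, blocks, and leaving out arrays.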

Additional observations from a re-analysis of the deposited data

Results flagged for a closer look

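Dixon's criterion for a distant value, at the 95% level, was applied to 134 groups of 4 or 5 array values, those of the main genes and gene lists described. It was met by 10. A rate of about 5% would hold by chance for independent groups chosen without their values. That rate does not apply here, since some genes were chosen after their values were seen and all groups share the same arrays. None of the 9 B-cell and plasma-cell genes was among the 10, Jchain on irradiated array 1 included.

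Irradiated array 1 was the lowest of the irradiated arrays in 8 of them. The cardiac muscle list was at -5.43 on that array, against -0.49 to 0.41 on the others, and the skeletal muscle list at -1.91, against -1.42 to -1.24. Of the 10 skeletal muscle genes 5 were well above background on all arrays, and Ckm was at 4.10 on irradiated array 1, against 8.36 to 8.87 on the other irradiated arrays. Il6 was at 7.01, against 9.48 to 10.44, Irf8 at 13.28, with the others up to 14.21, and Xlr4a at 9.64, against 10.58 to 10.92. Irf4 was at 8.92, against 9.79 to 10.06, Slamf7 at 8.07, against 9.10 to 9.37, and Cd72 at 10.8, against 11.80 to 12.06. Several of these genes were chosen after their values were seen. On control array 3 the skeletal muscle list was at 3.63, against -1.63 to -0.98 on the other controls. Pdia4 was highest on irradiated array 3, at 11.61, against 11.19 to 11.27 on the other irradiated arrays.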

How the results depend on the processing

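The number of the 9 genes past the threshold was 0 under all 22 alternatives, and the lowest limma adjusted p was 0.0987, for Pax5 with scan pairs as a random block. Cd79a, Cd79b, Ms4a1, Pax5 and Cd22 were lower in the irradiated arrays under all 21 alternatives that give a difference, and the median of the 6 B-cell genes ranged from -0.43 to -0.21. The median of the 3 plasma-cell genes ranged from -0.06 to 0.62. Blk was at -0.031 with normexp, -0.18 with 75th percentile scaling, -0.030 in the authors' table and -0.11 with array weights. Prdm1 was at -0.014 with 75th percentile scaling and -0.041 in the authors' table. Jchain was at 1.03 with the scan pair block, 0.57 with the random block, 0.20 with array weights and 0.47 without control array 3 and irradiated array 1 together.

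Without 1 array at a time Blk ranged from -0.32 to 0.33, Jchain from -0.69 to 1.03, Mzb1 from -0.056 to 0.62 and Prdm1 from -0.072 to 0.11. Mzb1 was below 0 without control array 3 only.

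The number of probes past the threshold, 131, depended on the setting. It was 197 with the filter on all 9 arrays, 44 in the authors' table, 44 without an intensity trend, 205 with array weights, 5 at an adjusted p under 0.01, 1105 with the scan pair block and 2899 with the random block. It ranged from 5 to 476 without 1 array: 46, 14, 5 and 8 without control arrays 1 to 4, and 476, 14, 6, 18 and 23 without irradiated arrays 1 to 5. Of the 91 wider genes, 6 passed with the scan pair block, 16 with the random block, 1 without control array 3 and irradiated array 1 together, and 0 to 1 without 1 array, where the 1 was Il6 without irradiated array 1. The cause was not tested.

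Arrays of the 2 groups with the same number did not deviate together over probes (r from -0.17 to 0.06), whereas scan pairs had r from 0.20 to 0.46. With the replicate number as a block, in which irradiated array 5 adds nothing to the difference, 1 probe passed and Blk was at -0.11. The planned normexp correction used the median spot signal. Signal over background limits the second Pax5 probe, well above background on 3 of 9 arrays.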
